A study of Mus musculus with 16 samples.

Results

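The 8 human microRNAs (miRNAs) listed as having the smallest p-values for a straight-line change with X-ray dose were described in the culture supernatant of irradiated cells. Of the 8 miRNAs, 6 had rising slopes (hsa-miR-3610, hsa-miR-769-3p, hsa-miR-422a, hsa-miR-939-5p, hsa-miR-423-5p and hsa-miR-500a-5p) and 2 falling ones (hsa-miR-663a and hsa-miR-663b). They were found by name on the arrays, among 1205 human miRNAs with probes, of which 283 were bright enough to be tested. The slopes over dose on these same 16 arrays chose the 8 miRNAs, so their slopes, dose means and differences between doses are a description and carry no test.

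The cells were HCT116, a human colorectal carcinoma line. X-rays were given at a high dose rate, and all cultures, the unirradiated ones included, then stayed for 72 h in RPMI1640 with 10% FBS (fetal bovine serum). Each of the 4 doses (0, 2, 6 and 10 Gy) had 4 cultures, described as independent. Each culture gave 1 single-colour Agilent array hybridised with Cy3-labelled RNA taken from the supernatant with ISOGEN. For every array 100 ng of RNA was labelled, so levels are relative to that RNA and are not amounts in the supernatant. The depositors' labels name the mouse as the organism and their design text calls the cells murine and lists no 2 Gy group, while the array carries human probes. Every group is 1 cell line, and the supernatant can hold miRNAs of the bovine serum as well as of the cells.

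MicroRNAs are short RNAs that are cut from a hairpin precursor and guide Argonaute proteins to messenger RNAs, mostly through the seed, bases 2 to 8. Either arm of the hairpin (5p or 3p) can be kept. In medium and in plasma, miRNAs are found in vesicles and in protein complexes, where they resist degradation better than longer RNAs, and the amount outside cells reflects release as well as transcription. In such bulk samples, fewer cells of a type and less RNA per cell cannot be told apart.

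The only one of the 8 miRNAs with a same-named entry in the RefSeq table used here, which is of the mouse (GRCm38.p6), was miR-423-5p. Its sequence and that of the other arm of its hairpin are shown because the arms are compared further on. They are the mouse sequences, with the seed in capitals, and the arms lie on the minus strand at chr11:77078122-77078144 (5p) and chr11:77078086-77078108 (3p).
mmu-miR-423-5p: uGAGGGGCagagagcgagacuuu
mmu-miR-423-3p: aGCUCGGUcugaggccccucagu
The 2 seeds differ.

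The arrays detected between 242 and 358 human miRNAs each, and no spot was saturated. Between 3.27% and 4.90% of spots were flagged as outliers. The 0 and 2 Gy arrays lay on slide 1 and the 6 and 10 Gy arrays on slide 2. Of 8 epithelial and intestinal marker miRNAs, 5 were detected on at least 1 array and none on all 16, and miR-192-5p, miR-194-5p and miR-215-5p were detected on none. None of 4 white blood cell and platelet miRNAs was detected on any array. Of 3 red blood cell miRNAs, miR-486-5p was detected on all arrays and the other two on none. The liver marker miR-122-5p was detected on 4 arrays, and of 4 muscle miRNAs 2 were detected on all arrays and 1 on none. On 2 arrays (0 Gy replicate 3 and 6 Gy replicate 4) both labelling spike-ins, synthetic RNAs added before labelling, were undetected, and their level was set to a floor of -2.32 (log2).

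Levels are given as log2 of the probe signal relative to a percentile of the same array (the 75th, over 518 probes detected on all arrays), so a value of 0 equals that percentile. Values of different miRNAs are not comparable in height, since each has its own probes. All 8 miRNAs passed the filter on dim probes, 7 of them were detected on all 16 arrays, and none had an averaged level at the floor of -4.60. The floor was applied to single probes before averaging, and on 0 Gy replicate 1 it replaced signals of miR-500a-5p probes.

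Among the rising miRNAs, miR-3610 had the smallest slope p-value of the 283. Its log2 level was 0.01, 0.11, 0.37 and 0.13 on the 0 Gy arrays and 0.46, 0.27, 0.45 and 0.45 on the 2 Gy arrays. It was 0.51, 0.48, 0.50 and 0.55 on the 6 Gy arrays and 0.60, 0.44, 0.52 and 0.62 on the 10 Gy arrays. Every 6 and 10 Gy array was above every 0 Gy array, whereas the 2 and 0 Gy arrays overlapped through 2 Gy replicate 2 and 0 Gy replicate 3. The dose means rose at each step, and most of the difference lay between 0 and 2 Gy. The fitted change over 10 Gy was 0.35 ± 0.09 (log2, SE, n = 16 arrays), or 1.27-fold.

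The 3p arm of the miR-769 hairpin, miR-769-3p, was measured by 1 of its 4 probes. The 0 Gy arrays had log2 levels of -1.81, -1.88, -1.71 and -1.79, and the 2 Gy arrays -1.57, -1.79, -1.54 and -1.59. For the 6 Gy arrays the levels were -1.26, -1.35, -1.50 and -1.52, and at 10 Gy -1.41, -1.53, -1.54 and -1.48. The highest mean was at 6 Gy, and the 6 Gy arrays did not overlap the 2 or the 0 Gy arrays. The fitted change over 10 Gy was 0.31 ± 0.09 (log2, SE, n = 16).

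A relative of the miR-378 family, miR-422a has been reported in hepatocytes to act on the messenger RNA of CYP7A1, the rate-limiting enzyme of bile acid synthesis. In log2 units it was at -3.23, -2.94, -2.90 and -2.88 at 0 Gy and -2.70, -2.95, -2.48 and -2.58 at 2 Gy. At 6 Gy it was -2.82, -2.65, -2.44 and -2.46, and at 10 Gy -2.57, -2.69, -2.50 and -2.33. The 0 Gy arrays lay below all 6 and 10 Gy arrays, while 2 Gy replicate 2 fell among the 0 Gy arrays. Its fitted change, 0.40 ± 0.13 over 10 Gy (log2, SE, n = 16), was 1.32-fold, and its 4 probes gave between 0.33 and 0.48.

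For miR-939-5p, which has been reported to act on the transcript of inducible nitric oxide synthase, the slope was the shallowest of the 8. The log2 levels were 0.41, 0.31, 0.53 and 0.52 at 0 Gy and 0.61, 0.38, 0.64 and 0.67 at 2 Gy. They were 0.47, 0.59, 0.74 and 0.53 at 6 Gy and 0.67, 0.69, 0.74 and 0.91 at 10 Gy. The 10 Gy arrays were all above the 0 Gy arrays, and the 2 and 6 Gy arrays spread over both. The fitted change was 0.27 ± 0.09 over 10 Gy (log2, SE, n = 16), or 1.20-fold.

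An abundant miRNA of plasma that has been studied as a marker of heart failure, miR-423-5p had overlapping groups at every pair of doses. Its log2 level was -0.67, -0.40, -0.73 and -0.55 at 0 Gy and -0.52, -0.43, -0.62 and -0.66 at 2 Gy. At 6 Gy it was -0.23, -0.15, -0.39 and -0.62, and at 10 Gy -0.14, -0.51, -0.23 and -0.35. The 0 and 2 Gy arrays were level with each other, and the higher values came from 3 arrays at 6 Gy and 3 at 10 Gy. The fitted change was 0.31 ± 0.11 over 10 Gy (log2, SE, n = 16), and its 2 probes differed, with 0.43 and 0.19.

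From a cluster of miRNAs in the CLCN5 gene of the X chromosome comes miR-500a-5p, whose probe signals ran from 12.3 to 49.2 intensity units. Levels in log2 were -4.53, -3.91, -4.19 and -4.20 at 0 Gy and -3.95, -3.99, -3.95 and -3.80 at 2 Gy. At 6 Gy it was -4.12, -3.70, -4.004 and -4.16, and at 10 Gy -3.84, -3.67, -3.72 and -3.82. The lowest value, on 0 Gy replicate 1, was not well above background for any of its 3 probes. The 10 Gy arrays lay above all 0 Gy arrays, with a mean at 6 Gy below that at 2 Gy. The fitted change was 0.35 ± 0.12 over 10 Gy (log2, SE, n = 16), or 1.28-fold. With a lower floor it was 0.38 ± 0.14, since 0 Gy replicate 1 held probes set to the floor.

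Of the falling pair, miR-663a is a primate-specific miRNA that has been reported to act on transcripts of JUNB and TGFB1, and its probes reached 12040 intensity units. Its log2 level was 3.58, 3.50, 3.33 and 3.56 at 0 Gy and 3.44, 3.53, 3.22 and 3.40 at 2 Gy. At 6 Gy it was 3.24, 3.37, 3.13 and 2.71, and at 10 Gy 3.16, 3.19, 3.21 and 3.19. The 10 Gy arrays were close to each other and all below the 0 Gy arrays, and the lowest array was 6 Gy replicate 4, 1 of the 2 with no spike-in detected. The fitted change was -0.34 ± 0.12 over 10 Gy (log2, SE, n = 16), and its 2 probes gave -0.33 and -0.35.

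The other falling miRNA, miR-663b, was measured by 1 of its 2 probes, with signals of 19.2 to 105 intensity units. Its log2 level was -1.72, -3.23, -2.63 and -3.11 at 0 Gy and -2.88, -3.15, -3.01 and -2.92 at 2 Gy. At 6 Gy it was -2.996, -3.36, -3.50 and -3.99, and at 10 Gy -3.16, -3.43, -3.24 and -3.90. All its dose groups overlapped the 0 Gy group, in which replicate 1 was far above the rest. The fitted change was -0.77 ± 0.27 over 10 Gy (log2, SE, n = 16), and it was -0.53 without 0 Gy replicate 1.

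**Figure D1:**
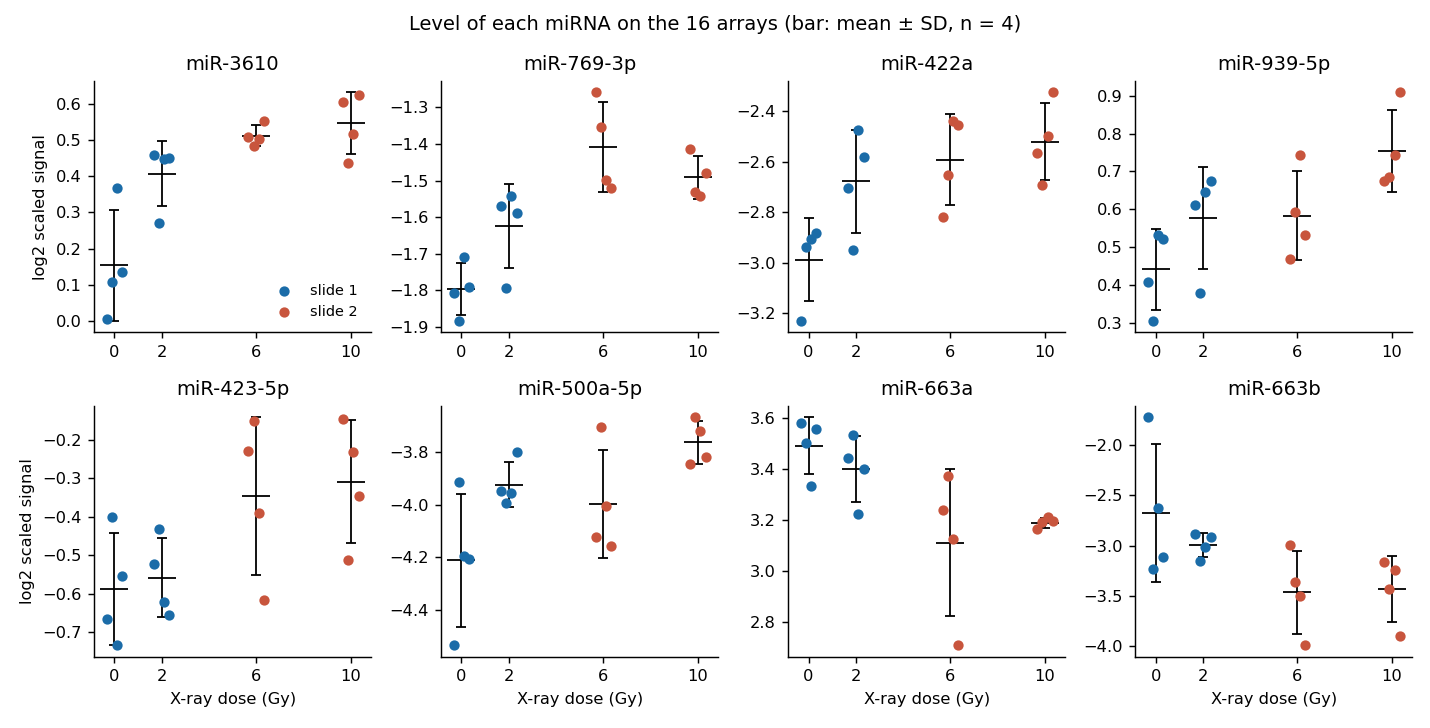
Log2 scaled signal of the 8 miRNAs (vertical axis, a range of its own in each panel) against X-ray dose in Gy, 1 point per array, coloured by slide, with the mean and SD of 4 arrays. The 10 Gy arrays lie above all 0 Gy arrays for 5 of the 6 rising miRNAs, and all 6 and 10 Gy arrays are on slide 2.

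The dose means did not order alike among the 8. For 4 of the 6 rising miRNAs (miR-3610, miR-422a, miR-939-5p and miR-423-5p) the mean rose at each step, against 12 of all 283 tested miRNAs (4.24%). Neither falling miRNA fell at each step, against 3 of 283 (1.06%). The 10 Gy arrays were all above the 0 Gy arrays for 5 of 6 rising miRNAs (background 9.89%) and all below them for 1 of 2 falling miRNAs (background 5.3%). At 6 against 0 Gy, 3 of the 6 rising miRNAs did not overlap (background 5.65%), and at 2 against 0 Gy 0 of 6 (background 7.07%). At 10 against 6 Gy no rising miRNA stood clear (background 8.13%). At 6 against 2 Gy, miR-3610 and miR-769-3p did (background 3.18%). Of the 2 falling miRNAs, 0 lay wholly below at 2 against 0 Gy (background 4.24%), at 6 against 0 Gy (3.53%), at 6 against 2 Gy (1.06%) and at 10 against 6 Gy (2.47%). The slopes that chose these miRNAs rest on the same values, so nothing is read from these counts.

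Over all 283 tested miRNAs, 0 slopes passed an adjusted p of 0.05 with limma (Benjamini-Hochberg, background 0%), and 36 had an unadjusted p under 0.05 (12.7%). Of these, 26 had rising slopes (9.19%) and 10 falling ones (3.53%). That balance moved with the scaling: it was 35 rising to 5 falling after quantile normalization, 15 to 2 where all probes set the percentile, and 0 to 10 on unscaled signals. The 8 miRNAs held ranks 1 to 4, 6, 8, 9 and 10 by slope p. The ranks between were held by miR-99b-3p, rank 5 with 0.24 ± 0.08 over 10 Gy, and miR-486-5p, rank 7 with 0.28 ± 0.10. Just outside were miR-1288-3p with 0.38 ± 0.14 and miR-583 with 0.32 ± 0.12 (log2, SE, n = 16 each). The changes of these 4 neighbours in rank overlapped those of the 6 rising miRNAs, 0.27 to 0.40.

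**Figure D2:**
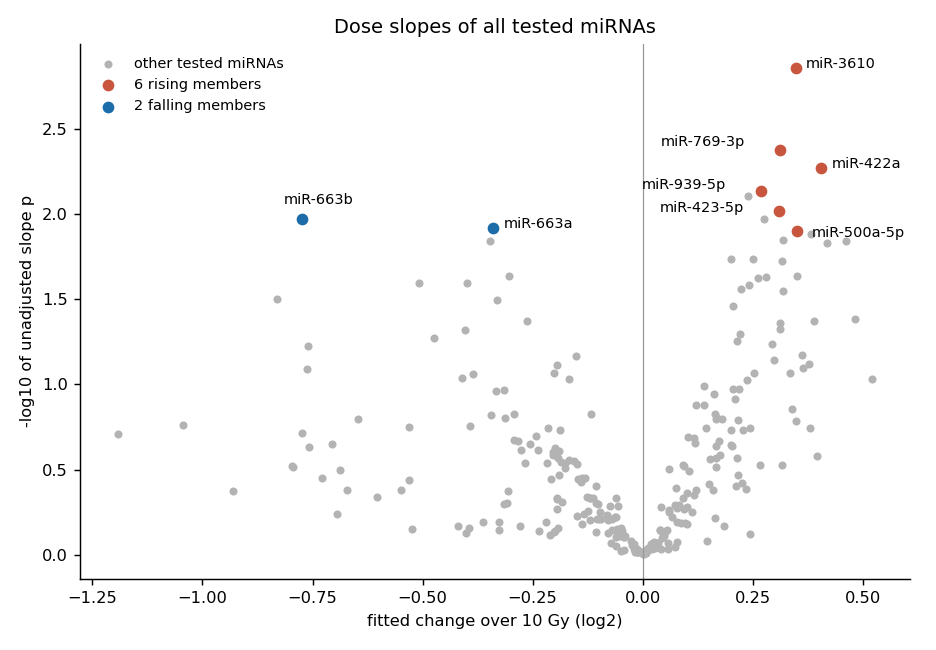
Fitted change over 10 Gy in log2 units (horizontal axis) against -log10 of the unadjusted slope p (vertical axis) for the 283 tested miRNAs, with the 6 rising and 2 falling miRNAs in colour. The 8 sit at the top because the slope p chose them. Larger falls at the left and larger rises at the right, both with larger p-values, are also seen.

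Whether a straight line described the dose means was asked with a moderated F over the dose differences that a line leaves. Departures passed an adjusted p of 0.05 for 0 of 283 miRNAs with limma (background 0%), and 99 had an unadjusted p under 0.05 (35%). Of the 8 miRNAs, only miR-769-3p was among these 99, with an adjusted p of 0.135. Choosing by slope p favours miRNAs with little spread around the line, so this count is not independent of the choice. The count over all miRNAs depended on single arrays: without 0 Gy replicate 3 it was 123, miR-3610 included, without 2 Gy replicate 2 it was 51, and without 6 Gy replicate 4 it was 7. Among the 8, miR-769-3p passed after quantile normalization, where 39 of all 283 passed, and with Agilent's total signal, where 32 passed. It also passed after normexp with quantile normalization, where 58 passed, and with scaling over all probes, where 152 passed.

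Slide and dose were partly joined, since a slide held either the 0 and 2 Gy or the 6 and 10 Gy arrays. The mean of the slide 2 arrays minus that of slide 1 was 0.25 for miR-3610, 0.26 for miR-769-3p, 0.28 for miR-422a, 0.16 for miR-939-5p, 0.25 for miR-423-5p, 0.19 for miR-500a-5p, -0.30 for miR-663a and -0.62 for miR-663b (log2). That step cannot be told apart from a step between 2 and 6 Gy.

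On slide 1, 2 Gy minus 0 Gy was 0.25 for miR-3610, 0.17 for miR-769-3p, 0.31 for miR-422a, 0.14 for miR-939-5p, 0.03 for miR-423-5p and 0.29 for miR-500a-5p. It was -0.09 for miR-663a and -0.32 for miR-663b. On slide 2, 10 Gy minus 6 Gy was 0.03 for miR-3610, -0.08 for miR-769-3p, 0.07 for miR-422a, 0.17 for miR-939-5p, 0.04 for miR-423-5p and 0.23 for miR-500a-5p. It was 0.08 for miR-663a and 0.03 for miR-663b. On slide 2 miR-769-3p, miR-663a and miR-663b moved against the direction of their slopes. On that slide only miR-939-5p and miR-500a-5p differed by more than their SD within doses (0.12 and 0.17). On slide 1 miR-423-5p, miR-663a and miR-663b differed by less than theirs (0.16, 0.17 and 0.44). These differences rest on the values that chose the 8, so nothing is read from their signs. The slope per Gy on slide 2 minus that on slide 1 is the departure from a line that remains with slide as a block. It passed an adjusted p of 0.05 for 54 of 283 miRNAs with limma (19.1%), and 126 had an unadjusted p under 0.05 (44.5%). None of the 8 was among the 54. The unadjusted 126 held miR-3610, with a difference of -0.12 ± 0.05 log2 per Gy (SE, n = 16, limma adjusted p = 0.0791), and miR-769-3p, with -0.11 ± 0.05 (adjusted p = 0.0955).

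With slide as a block, the fitted change over 10 Gy was 0.75 ± 0.29 for miR-500a-5p, 0.47 ± 0.21 for miR-939-5p, 0.45 ± 0.31 for miR-422a and 0.32 ± 0.23 for miR-3610. It was 0.11 ± 0.26 for miR-423-5p and 0.01 ± 0.22 for miR-769-3p, less than their standard errors. For miR-663b it was -0.26 ± 0.66, and for miR-663a it turned to 0.06 ± 0.28. All these values are on the log2 scale with SE (n = 16). By the layout, 83.1% of the sum of squares of dose lay between the slides. A change straight in dose would draw that same share of its slope from the difference between the slides. A large share was thus set by the layout and is no finding about the 8 miRNAs. The difference between the slides supplied 63.5% of the slope of miR-500a-5p, 70.1% for miR-939-5p, 81.1% for miR-422a and 84.4% for miR-3610. For miR-423-5p it supplied 94.2%, for miR-663b 94.4%, for miR-769-3p 99.6% and for miR-663a 103%.

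**Figure D3:**
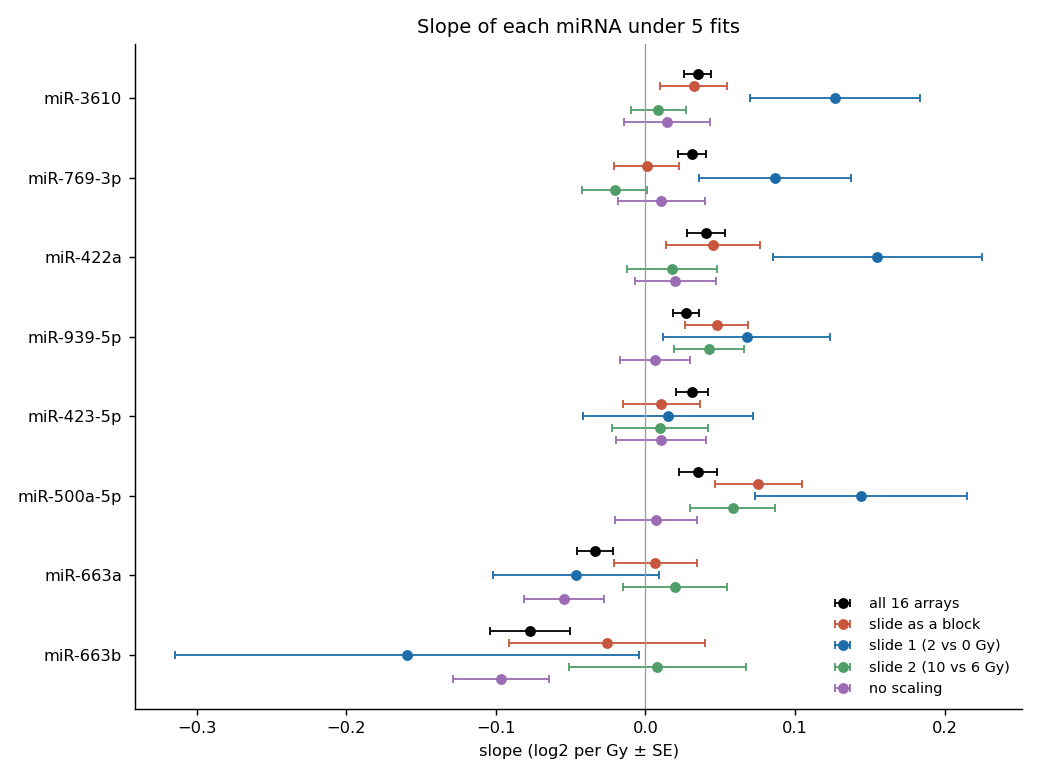
Slope in log2 per Gy with its SE (horizontal axis) for each miRNA (rows) over all 16 arrays, with slide as a block, on slide 1 alone, on slide 2 alone and without scaling. On slide 2 alone miR-769-3p, miR-663a and miR-663b turn direction, and without scaling the 6 rising slopes shrink while both falling ones grow.

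The scaling between arrays set part of the size. The scaling value, the log2 75th percentile of the arrays, had means of 8.84 ± 0.35, 8.95 ± 0.35, 9.09 ± 0.44 and 8.61 ± 0.31 in order of dose (SD, n = 4 each). Without scaling, the median change of all tested miRNAs over 10 Gy was -0.19, and with the percentile taken over all probes it was 0.10, against -0.01 as scaled here. Without scaling the fitted changes of the 6 rising miRNAs over 10 Gy were all smaller than their SE, from 0.06 ± 0.24 (miR-939-5p) to 0.20 ± 0.27 (miR-422a), while miR-663a had -0.54 ± 0.27 and miR-663b -0.97 ± 0.32 (log2, SE, n = 16). With scaling over all probes the rising ones changed by 0.39 to 0.52, miR-663a by -0.22 and miR-663b by -0.65. With all their probes kept, the change over 10 Gy of those measured by 1 probe was 0.08 for miR-769-3p and -0.39 for miR-663b. The added probes were constant at the floor, so these smaller values follow from averaging alone. They do not show what the dim probes measured. After normexp background correction and quantile normalization, miR-422a changed by 0.26, miR-500a-5p by 0.15 and miR-663b by -0.29.

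The level of the labelling spike-in varied from array to array, with means of 6.37 ± 5.84, 5.67 ± 1.72, 3.65 ± 4.04 and 7.53 ± 1.14 in order of dose, 0, 2, 6 and 10 Gy (log2, SD, n = 4 each). It did not choose the miRNAs, and each miRNA's deviation from its dose mean was set against the spike-in's deviation over the 16 arrays. Only the 8 miRNAs were so compared. The share of all 283 tested miRNAs that would pass is not known, so nothing particular to the 8 is read from the correlations. The permutations shuffled these deviations across doses, although the spread of the spike-in differed between doses. All permutation p-values are therefore approximate, and "exact" means only that every order on a slide was taken. For miR-3610 the correlation was r = -0.79 (permutation adjusted p = 0.00184 over the 8 miRNAs, two-sided) and rho = -0.82 (adjusted p = 0.00192). It was -0.75 without the 2 arrays farthest in spike-in, -0.89 on slide 1 (exact permutation p = 0.0025, n = 8) and -0.55 on slide 2 (exact permutation p = 0.167, n = 8). Without 0 Gy replicate 3 alone it was -0.54, with an adjusted permutation p of 0.157, and so did not pass. For miR-663a the correlation was r = 0.69 (permutation adjusted p = 0.0255) and rho = 0.65 (adjusted p = 0.0284). It was 0.61 on slide 1 (exact permutation p = 0.0989, n = 8) and 0.90 on slide 2 (exact permutation p = 0.0104, n = 8). Without the 2 farthest arrays it was 0.07, so the relation rests on those arrays. Without 6 Gy replicate 4 alone it was 0.52, with an adjusted permutation p of 0.198. Neither correlation passed without scaling or with scaling over all probes.

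The other 6 miRNAs did not pass, with r between -0.35 (miR-422a) and 0.48 (miR-423-5p, permutation adjusted p = 0.157). For miR-769-3p, r was -0.15 as scaled here, but -0.72 after quantile normalization, with or without normexp, and then passed (permutation adjusted p = 0.00269 without and 0.00291 with normexp). After normexp with quantile normalization miR-422a also passed (r = -0.58, permutation adjusted p = 0.0283). With the spike-in as a covariate, the fitted change of miR-3610 over 10 Gy was 0.36 and that of miR-663a -0.36. With that covariate 1 slope of 283 passed in limma, that of miR-3610 (adjusted p = 0.0291), which was chosen by its slope.

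**Figure D4:**
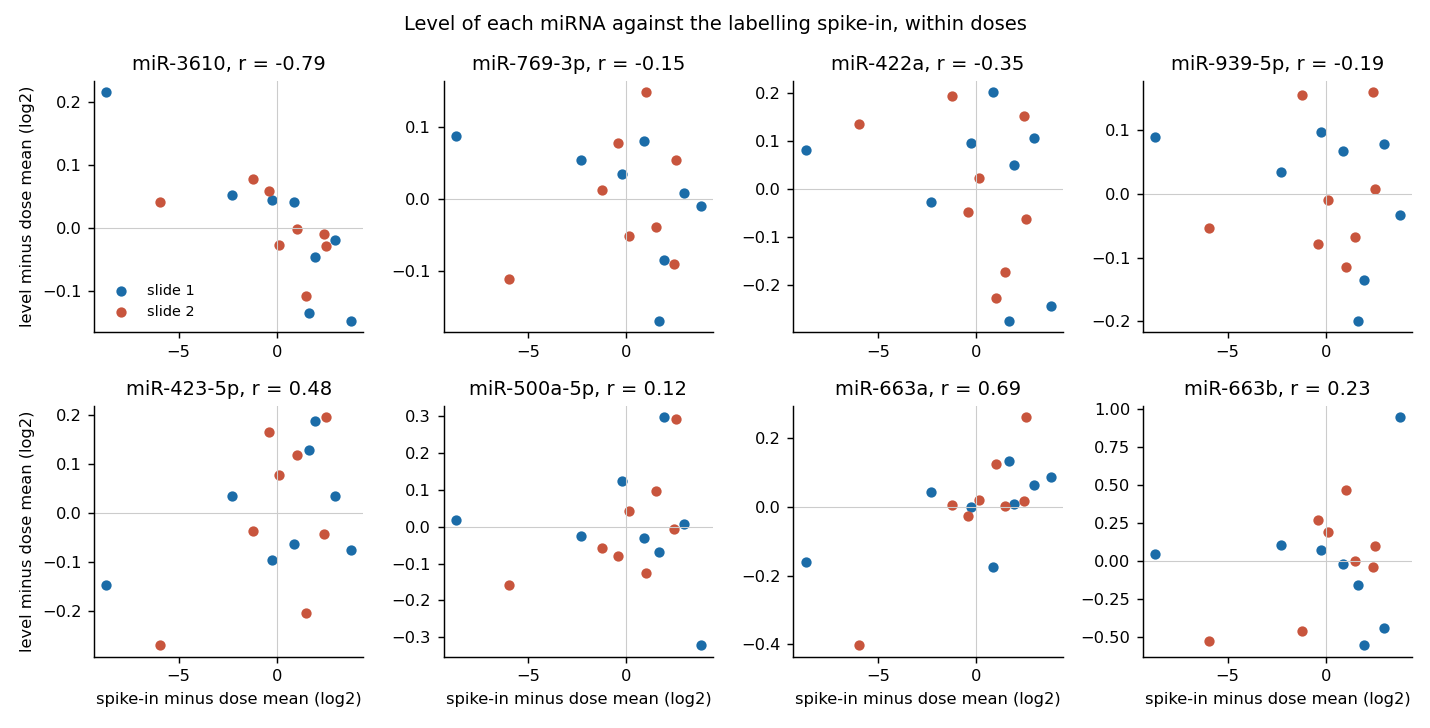
Level of each of the 8 miRNAs minus its dose mean (vertical axis, log2) against the labelling spike-in minus its dose mean (horizontal axis, log2), 1 point per array, coloured by slide, with Pearson r over 16 arrays above each panel. The 2 points far to the left are the arrays with no spike-in detected, which carry much of the relation for miR-663a.

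Relatives of the 8 miRNAs were compared by arm, cluster and family. The relatives were named from general knowledge after the files were seen. Those tested were ranked by slope p together with the 8 and were not among the listed 8. A flatter or noisier slope in a relative than in its chosen miRNA is therefore partly fixed by the choice. The 3p arm of miR-423 had a fitted change of -0.01 ± 0.13 over 10 Gy (log2, SE, n = 16, limma adjusted p = 0.974). Its log2 level had means of -4.01 ± 0.16, -4.26 ± 0.09, -4.16 ± 0.30 and -4.09 ± 0.11 in order of dose (SD, n = 4 each). The change of miR-423-5p minus that of miR-423-3p was 0.32 ± 0.12, given without a test because the 5p arm was chosen for its slope. The 5p arm of miR-769 changed by 0.18 ± 0.43 over 10 Gy (limma adjusted p = 0.917), with means of -3.02 ± 0.82, -3.18 ± 0.64, -3.51 ± 0.88 and -2.76 ± 0.19 at 0, 2, 6 and 10 Gy. Its replicates spread widely at 0, 2 and 6 Gy, and 1 of the 6 Gy arrays was at the floor.

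The miRNAs named as neighbours of miR-500a-5p, on its X-linked cluster or the other arm of its hairpin, were mostly dim. Of 13, 6 were detected on at least 1 array, 7 on none, and miR-188-5p was tested. Its log2 level had means of 3.94 ± 0.31, 4.39 ± 0.05, 4.29 ± 0.14 and 4.38 ± 0.05 in order of dose (SD, n = 4 each). The fitted change of miR-188-5p over 10 Gy was 0.31 ± 0.14 (log2, SE, n = 16), with an unadjusted p of 0.0434 and a limma adjusted p of 0.361, so it did not pass. The step lay between 0 and 2 Gy, where no 2 Gy array overlapped a 0 Gy array. Beside the fitted change of 0.40 ± 0.13 for miR-422a, the miR-378 family member listed under the older name miR-378_v17.0 changed by -0.06 ± 0.23 (limma adjusted p = 0.939). The seed relative of miR-663a, miR-1908-5p, was not detected on any array.

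**Figure D5:**
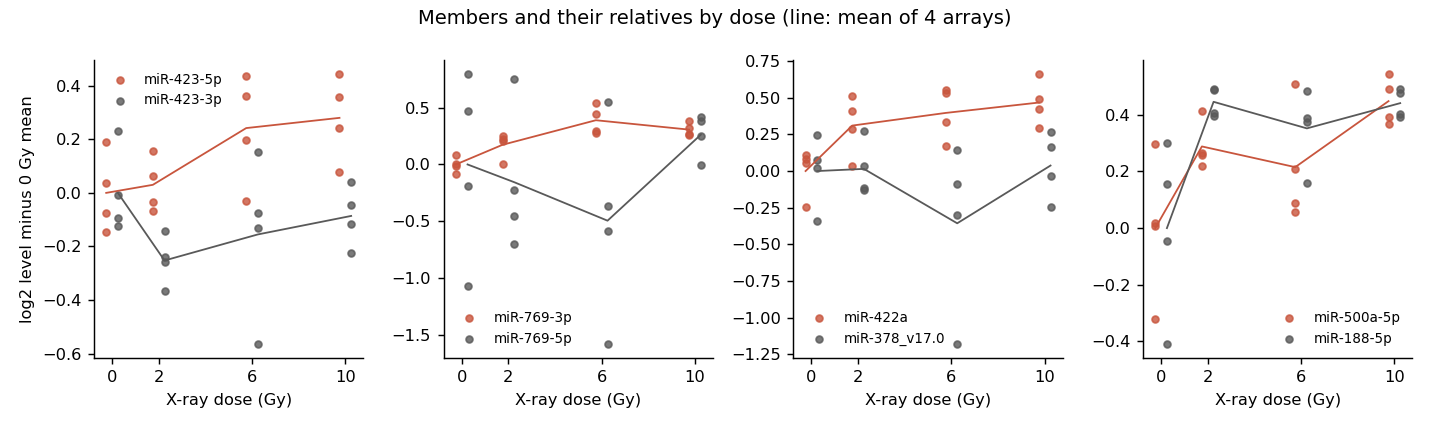
Level minus the 0 Gy mean (vertical axis, log2) against X-ray dose in Gy for miR-423-5p, miR-769-3p, miR-422a and miR-500a-5p (red) and 1 tested relative of each (grey), 1 point per array and a line through the means of 4 arrays. The red lines end higher than they begin by choice, and miR-188-5p runs near miR-500a-5p. The mean lines of the arms of miR-423 part at every irradiated dose, with miR-423-3p near the floor.

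The tested miRNAs most like each of the 8 over the 16 arrays were found by Pearson r of the log2 levels, which share slides, scaling and dose. For miR-3610 they were miR-1299 (r = 0.90) and miR-134-5p (0.88), for miR-769-3p miR-1299 (0.89) and miR-125a-3p (0.82), and for miR-422a miR-572 and miR-134-5p (0.88 each). For miR-939-5p they were miR-3620-3p (0.82) and miR-3663-3p (0.81), and for miR-423-5p miR-1229-3p (0.77) and miR-486-5p (0.71). The closest likeness was that of miR-500a-5p with miR-3125 (0.99) and miR-1288-3p (0.95). Signals of miR-500a-5p lay near background, at 12.3 to 49.2 intensity units, which limits these values. For miR-663a they were miR-141-3p (0.82), a member of the epithelial miR-200 family, and miR-1972 (0.81), and for miR-663b miR-1280_v18.0 (0.80) and miR-887-3p (0.77).

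Among the 8 themselves, miR-3610 ran with miR-422a (r = 0.86 over 16 arrays) and miR-769-3p (0.84). Taking deviations within doses removes the dose means, but not the spread that entered the slope p or the scaling of each array. So taken, miR-422a and miR-939-5p still ran together (r = 0.73), whereas miR-769-3p and miR-422a did not (r = 0.04, against 0.62 with dose left in). Within doses miR-423-5p ran with miR-663a (r = 0.70), which moved the other way with dose, and against miR-939-5p (r = -0.37). For miR-423-5p and miR-663a, 6 Gy replicate 4, with no spike-in detected, was the lowest array of its dose (-0.62 and 2.71). These correlations are given without a test.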

How the data were processed

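The deposited files were 16 scanner outputs of Agilent Feature Extraction 11.5.1.1 with background-subtracted spot intensity values, per the file headers, 1 array per culture and not scaled between arrays. Unflagged spots were averaged per probe. A probe counted as detected if more than a share of 0.5 of its spots exceeded background by the scanner's flag, and 592 probes detected on each array of some dose were kept. Intensity was scaled to each array's 75th percentile over 518 probes detected on all arrays, floored at 0.0412, put on the log2 scale and averaged per miRNA. limma 3.58.1 (R 4.3.3) gave slopes and departures over 283 miRNAs with Benjamini-Hochberg adjustment. The fit was checked on simulated data with independent noise for each miRNA and no slide effect. That check cannot give the rate of false calls where miRNAs are correlated or slides differ. Spike-in correlations used 100000 resamples, or all 40320 orders within a slide, with deviations shuffled across doses. The number of arrays limits the precision.

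The 8 miRNAs, the lists and the alternatives were chosen with earlier results of these data known. Named are the 8, their relatives, the 2 most alike tested miRNAs for each, and the 4 miRNAs outside the 8 with the smallest slope p. A rule to find relatives by seed and by distance under 10 kb needed human annotation, which was not used here, so relatives were taken from general knowledge after the files were seen. Slide, row and column came from the file headers. No 2 arrays were identical.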

Additional observations from a re-analysis of the deposited data

Results flagged for a closer look

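Of 32 groups of 4 arrays (8 miRNAs at 4 doses), 2 held an array whose gap to its nearest neighbour exceeded Dixon's critical share of the group's range, where chance gives about 1 group in 20. For miR-3610 at 2 Gy, replicate 2 was at 0.27 log2 units, while the other three lay between 0.45 and 0.46. For miR-422a at 0 Gy, replicate 1 was at -3.23 log2 units, while the other three lay between -2.94 and -2.88.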

How the results depend on the processing

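Of 151 slopes of the 8 miRNAs under other settings, 116 stayed within 1 replicate SD, 31 moved by more with their direction kept and 4 turned: miR-663a with slide as a block (0.00649 log2 per Gy), and on slide 2 alone miR-769-3p (-0.0207), miR-663a (0.0197) and miR-663b (0.00775). All 128 slopes with 1 array left out kept their direction. Slope calls over all tested miRNAs were 0 in every setting but the spike-in covariate (1). Departure calls, 0 as reported, were 152 with scaling over all probes, 39 after quantile normalization, 58 after normexp with quantile normalization, 32 with Agilent's total signal, 1 with the median over probes, 12 with a lower floor, 7 with probes detected on all arrays, 25 with slide row as a block, 54 with slide as a block (1 contrast left), 61 with the spike-in covariate and 165 without 0 Gy replicate 3 and 2 Gy replicate 2 together. They were 0 to 123 with 1 array left out. The cause was not tested. Scaling over all probes called 5 of the 8 miRNAs, where 152 of all 283 were called. Normexp with quantile normalization (58 of 283) and leaving out both arrays (165 of 283) each called miR-3610 and miR-769-3p. Quantile normalization (39 of 283) and Agilent's total signal (32 of 283) each called miR-769-3p. The 7 calls with probes detected on all arrays were of 217 miRNAs. Nothing about the 8 is read from these counts.

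With replicate number as a block there were 0 slope calls and 39 departure calls, and the numbers were not taken to pair the arrays, since not every same-number pair correlated above 0.1: deviations of 24 pairs had r of -0.76 to 0.87, with 14 over 0.1 and 9 best matched to their own number. All 6 pairs of replicate 2 were above 0.1 (0.59 to 0.87, each best matched), against 0 of 6 best matched for replicate 1, 0 for replicate 3 and 3 for replicate 4. The block left slope calls at 0.

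Correlations with the spike-in that passed numbered 2 as reported, 0 with scaling over all probes, 0 without scaling, 3 after quantile normalization, 4 after normexp, 0 without 0 Gy replicate 3 and 2 Gy replicate 2 together, 1 without the 2 arrays with no spike-in detected (chosen after seeing the data) and 1 to 3 with 1 array left out (also chosen after). Among those not passing as reported, signs turned for miR-500a-5p (-0.044 with scaling over all probes, -0.13 without scaling, -0.21 after quantile normalization, -0.41 after normexp, -0.071 without the 2 arrays). They turned for miR-423-5p (-0.067 without scaling, -0.30 without the 2 arrays), miR-663b (-0.00965 without scaling), and miR-769-3p (0.38) and miR-939-5p (0.21) without 0 Gy replicate 3 and 2 Gy replicate 2. With 1 array left out, r ran from -0.466 to 0.141 for miR-769-3p, -0.328 to 0.0249 for miR-939-5p, -0.0595 to 0.446 for miR-500a-5p and -0.0232 to 0.422 for miR-663b. Signals of miR-500a-5p near background limit its values. All these correlations were run for the 8 miRNAs only, so no share over all tested miRNAs stands beside the counts that passed.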
